A study of Mus musculus with 2 samples.

Results

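The Ifi200 (PYHIN) genes of the mouse form a cluster of interferon-inducible paralogs, and 7 of them were read on 2 one-colour Affymetrix arrays of thymocytes, 1 titled TKO and 1 titled DKO. The members are Ifi202b, Ifi203, Ifi204, Ifi209, Ifi213, Aim2 and Mnda, beside 18194 genes in all with a probe set of their own on the array, among which 6 of the 7 members count. They were chosen by symbol with their TKO and DKO signals already known from earlier results of these arrays, so every signal and ratio of a member below is a description and carries no test. A probe set, the array's unit of measurement, was taken as a member's when the platform annotation, updated by Entrez ID, gives it that gene alone or that gene with family relatives. In the RefSeq table of assembly GRCm38.p6 the name Mnda is an older alias of Ifi211, which is the name used here. This rule found 14 probe sets, 8 of them of 1 gene and 6 of several genes. In 4 of the 6, loci that the annotation lists by number only stand beside the family genes.

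The series' design text gives the TKO array as LckCre(+) and the DKO array as LckCre(-), both on Cdkn2a-/-, Ring1A-/- and Ring1Bfl/fl alleles in C57BL/6J mice. The Lck promoter drives the Cre recombinase in T-lineage cells, and Ring1A and Ring1B are the ubiquitin ligases of Polycomb repressive complex 1. The samples' genotype field instead names a Ring1A, Ring1B and Cdkn2a triple knockout for TKO and a Ring1A and Ring1B double knockout for DKO. Cells negative for lineage markers were taken by bead depletion, a culture step is named without its length, and the labels give no age, sex or number of animals. Each label has 1 array, so there is no spread between replicates, no test was possible, and a gene called higher or lower is so between these arrays alone.

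Several values of the arrays as a whole bear on every result below. The targeted gene Cdkn2a had a signal of 18.5 on the TKO-labelled array and 679 on the DKO-labelled array, whereas by the design text neither genotype carries a functional copy. Rnf2 (Ring1B) had 4384 and Ring1 (Ring1A) 147 on the TKO-labelled array, against 4149 and 133 on the DKO-labelled array. The positions of these probe sets in their genes were not used here, so they do not settle the genotypes, and the arrays are named by their labels. Xist gave 16502 on the TKO-labelled array and 124 on the DKO-labelled array, and Uty, Kdm5d and Eif2s3y of the Y chromosome were above the floor set below on the DKO-labelled array only, so sex and label cannot be told apart. Of the T-lineage markers with a probe set, 13 of 14 were measured, and Cd4 was below the floor on both arrays.

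PYHIN proteins join a pyrin domain, which binds other pyrin domains, to a HIN domain, which binds double-stranded DNA. Type I interferon raises their transcription through response elements near the start site, and in myeloid and lymphoid cells they act as DNA sensors and as regulators of transcription and the cell cycle. Aim2 is the DNA sensor of an inflammasome. The protein of Ifi202b, p202, has HIN domains but no pyrin domain and restrains Aim2 in the mouse, and p204, the product of Ifi204, binds the retinoblastoma protein and the Id proteins.

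Promoter sequences are shown for 6 of the 7 members, all but Ifi204, because the family is known for its response to interferon and the elements near the start sites differ between members. Windows from 250 bases before to 50 bases after the start site, from RefSeq on GRCm38.p6, were searched on both strands for the core of the interferon-stimulated response element, GAAANNGAAA. Each stretch of 40 bases below is on the strand of its gene, with the bases aligned to that core in capitals. They are from Ifi213 (chr1:173599320-173599359, minus strand), Ifi203 (chr1:173942502-173942541, minus strand), Ifi211 (chr1:173913058-173913097, minus strand) and Ifi209 (chr1:173630766-173630805, plus strand).
Ifi213: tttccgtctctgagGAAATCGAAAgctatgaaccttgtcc
Ifi203: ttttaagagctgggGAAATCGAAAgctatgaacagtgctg
Ifi211: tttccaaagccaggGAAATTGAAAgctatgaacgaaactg
Ifi209: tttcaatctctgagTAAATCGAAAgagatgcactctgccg

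Counted from 1 at the 5′ end of the core, and with Ifi213 as the sequence set against, Ifi211 carries C6T and Ifi209 carries G1T. The C6T change falls on a free position of the core. The G1T change does not, so the Ifi209 window holds no full core, only the shorter interferon regulatory factor core AANNGAAA, which overlaps it. Relative to the start site, the core begins at position -73 in Ifi213, -35 in Ifi203 and -37 in Ifi211, and the altered one begins at -79 in Ifi209. Ifi203 has a further, upstream start site in the table, whose window holds none of the motifs.

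The windows of Ifi202b and Aim2 held no match to either core. The 250 bases before each start site follow, Ifi202b at chr1:173982845-173983094 on the minus strand and Aim2 at chr1:173420354-173420603 on the plus strand, with the capitals in Ifi202b marking a match to the gamma-activated site TTCNNNGAA.
Ifi202b: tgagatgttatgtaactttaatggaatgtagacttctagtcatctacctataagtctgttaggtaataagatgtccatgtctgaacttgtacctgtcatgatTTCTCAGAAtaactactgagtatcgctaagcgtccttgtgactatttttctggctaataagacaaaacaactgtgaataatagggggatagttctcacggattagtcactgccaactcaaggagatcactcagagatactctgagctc
Aim2: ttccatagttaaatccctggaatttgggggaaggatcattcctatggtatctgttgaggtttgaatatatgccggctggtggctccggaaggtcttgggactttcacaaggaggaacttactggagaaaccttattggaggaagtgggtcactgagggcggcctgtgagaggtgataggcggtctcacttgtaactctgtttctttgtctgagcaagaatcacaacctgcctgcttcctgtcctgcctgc

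Over the 12 family genes with a window in the table, members and others, 9 held the GAAANNGAAA core in at least 1 window, 10 held AANNGAAA and 1, Ifi202b, held TTCNNNGAA. Of all 27025 RefSeq genes with such windows, 3.99% held the GAAANNGAAA core, 26.7% held AANNGAAA and 9.55% held TTCNNNGAA. By window, the counts were 10, 11 and 1 of the 14 family windows for these motifs in turn, beside 3.44%, 23.9% and 8.30% of 32851 windows. Family promoters are copies of each other, so the genes are not independent. A match is a run of letters and not a measured binding site, and no match says nothing of other stretches.

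**Figure D1:**
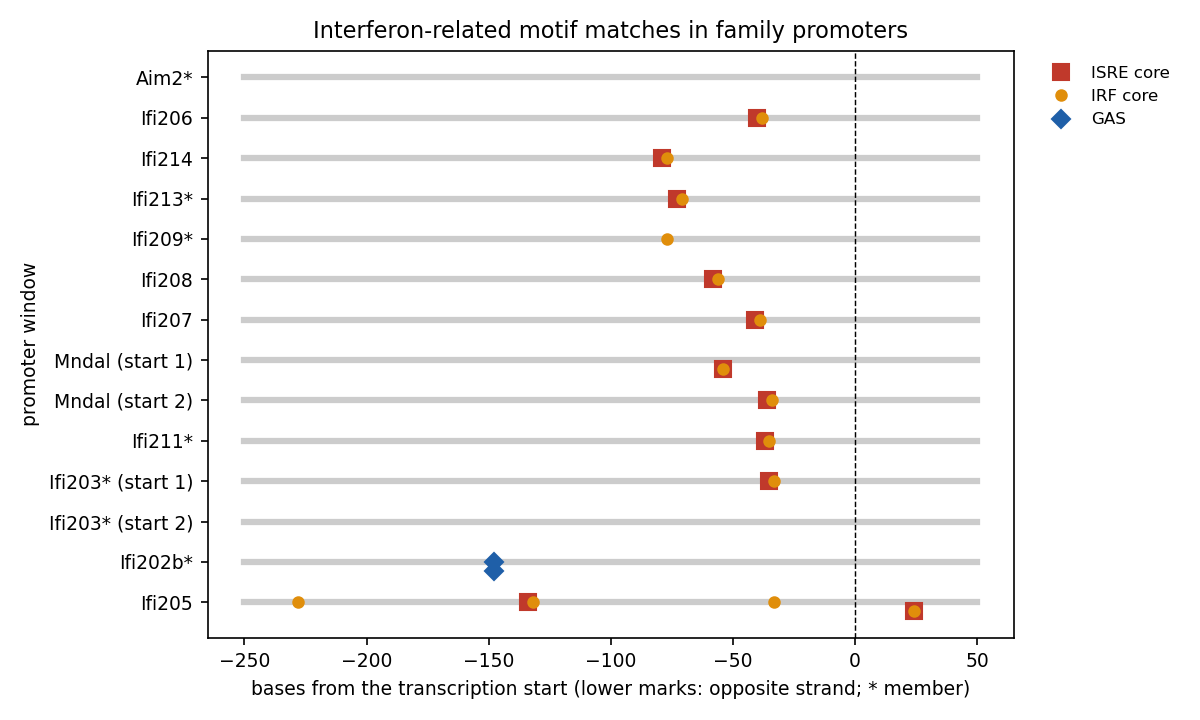
Matches to the interferon-stimulated response element (ISRE) core, the interferon regulatory factor (IRF) core and the gamma-activated site (GAS) in 14 promoter windows of 12 family genes, by distance in bases from the start site. Ifi209 holds the IRF core alone, Ifi202b holds the GAS match alone, and Aim2 holds none.

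Signals below are MAS5 values on a linear scale, an intensity in arbitrary units as scaled by the authors. The median signal of each array, 71.8 on the TKO-labelled and 68.8 on the DKO-labelled array, served as the floor, and signals under it do not count as measured. A signal under the floor was raised to it, and no ratio was taken where both arrays were under it. Ratios are log2 of TKO over DKO, and a difference of 2-fold or more was the size rule for calling a probe set or gene higher or lower. Of the 14 member probe sets 11 were measured on both arrays and 3 were below the floor on both. Of the 11, 2 were higher in TKO, 2 were lower and 7 were neither. Over all 23894 probe sets measured on at least 1 array, 2.91% were higher and 0.578% were lower. By gene, each through its brightest probe set of its own, 1 of 5 measured members was higher (Ifi209) and 1 was lower (Ifi202b), beside 3.58% and 0.532% of 11280 measured genes. The members were chosen from this contrast, so nothing is read from these shares.

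Ifi209, a PYHIN gene also known as Pyhin1, was the member with the highest ratio. Its brighter probe set (1435331_at) gave 3779 on the TKO-labelled array and 451 on the DKO-labelled array, 8.39-fold higher (log2 ratio 3.07). Its other probe set (1435330_at) gave 707 on the TKO-labelled array and 417 on the DKO-labelled array, 1.69-fold higher (log2 ratio 0.76) and so under the 2-fold rule. Both were higher on the TKO-labelled array, but by amounts that differ by 2.31 on the log2 scale.

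That gap was wide for these arrays. Between the brightest pair of probe sets of a gene, both measured on both arrays, the difference of log2 ratios had a robust SD of 0.29 over 4794 genes, and 1 gene among them had a wider gap than Ifi209. Such pairs are read from the same hybridisations, so this SD holds no error between RNA preparations or animals. The positions of the Ifi209 probe sets along the transcript were not used here. As the mean of its probe sets Ifi209 had a log2 ratio of 1.91. By its brighter probe set it ranked 6 from the top of 10316 genes measured on both arrays.

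Ifi202b was the member with the lowest ratio, and its probe sets moved together. The probe set of Ifi202b alone (1421551_s_at) gave 298 on the TKO-labelled array and 973 on the DKO-labelled array, 3.26-fold lower (log2 ratio -1.71). The probe set that Ifi202b shares with a locus listed by number (1457666_s_at) gave 479 on the TKO-labelled array and 1571 on the DKO-labelled array, 3.28-fold lower (log2 ratio -1.71). The log2 ratios differed by 0.008, and Ifi202b ranked 2 from the bottom of the 10316 genes.

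Both Ifi202b probe sets are of the _s_at type, which can bind transcripts of more than 1 gene, and without such types Ifi202b has no value. Ifi202b transcript levels are known to differ widely between inbred mouse strains. The labels give C57BL/6J for both arrays, and a difference in the strain origin of this chromosomal region was not tested. Ifi202b and Ifi209 thus lay at opposite ends of the ratios while standing in the same cluster on chromosome 1, with 7 family genes between them.

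**Figure D2:**
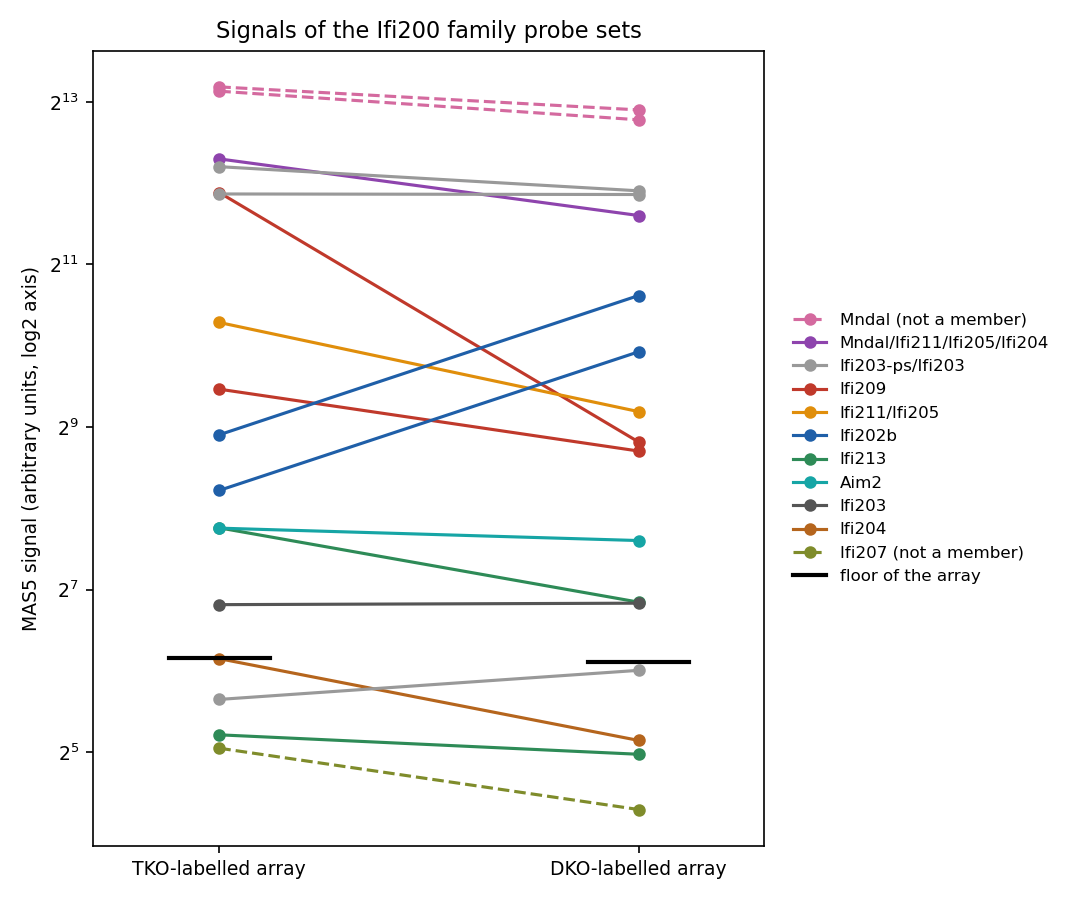
MAS5 signals (log2 axis) of the 14 member probe sets, solid lines, and of 3 probe sets of the family genes Mndal and Ifi207, dashed lines, with the TKO-labelled array left and the DKO-labelled array right. Of the measured probe sets, those of Ifi202b are lower on the TKO-labelled array and the steepest line is that of an Ifi209 probe set, at 3779 against 451.

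The next members by ratio were Ifi211 and Ifi213. Ifi211, the gene listed as Mnda, had no probe set of its own. The probe set it shares with its close relative Ifi205 (1452349_x_at) gave 1249 on the TKO-labelled array and 584 on the DKO-labelled array, 2.14-fold higher (log2 ratio 1.10). The signal cannot be split between Ifi211 and Ifi205. A wider probe set that covers Mndal, Ifi211, Ifi205 and Ifi204 (1452348_s_at) gave 5036 on the TKO-labelled array and 3107 on the DKO-labelled array, 1.62-fold higher (log2 ratio 0.70).

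Ifi213, another PYHIN gene, stood just under the size rule. Its probe set 1437636_at gave 217 on the TKO-labelled array and 115 on the DKO-labelled array, 1.88-fold higher (log2 ratio 0.91). Its other probe set (1444405_at) was below the floor on both arrays, at 37.1 on the TKO-labelled and 31.5 on the DKO-labelled array.

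Ifi204 was not measured by its own probe set (1419603_at), which read 71.1 on the TKO-labelled array and 35.4 on the DKO-labelled array. The TKO value lay just under the floor of that array, 71.8, so Ifi204 has no ratio under the rule. With a lower floor, the 25th percentile of each array, it was at a log2 ratio of 1.01. The wider shared probe set above is the other reading that includes Ifi204, and 3 other genes contribute to it.

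Aim2, the inflammasome sensor, and Ifi203 differed little between the arrays. Aim2 gave 216 on the TKO-labelled array and 195 on the DKO-labelled array, a log2 ratio of 0.15. The Ifi203 probe set of that gene alone (1442828_at) gave 113 on the TKO-labelled array and 114 on the DKO-labelled array, a log2 ratio of -0.02. Ifi203 shares 3 further probe sets with the pseudogene Ifi203-ps. Of these, 1448775_at gave 3734 on the TKO-labelled array and 3717 on the DKO-labelled array, a log2 ratio of 0.01.

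The remaining Ifi203 readings gave no 2-fold difference either. Probe set 1451567_a_at gave 4713 on the TKO-labelled array and 3836 on the DKO-labelled array, a log2 ratio of 0.30. Probe set 1425008_a_at was below the floor on both, at 50.2 on the TKO-labelled and 64.3 on the DKO-labelled array. Of the 11 measured member probe sets, 8 had a ratio above 0 and 3 below, with a median log2 ratio of 0.30, against -0.02 over all measured probe sets.

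Of the family genes outside the member list, Mndal and Ifi207 had probe sets of their own, and none of these differed by 2-fold, while Ifi205 was read only in the probe sets shared with Ifi211 above. Mndal, an Ifi200 gene next to Ifi211, gave 8970 and 9304 with its probe sets on the TKO-labelled array, against 7027 and 7646 on the DKO-labelled array, in the same order of probe sets. Their log2 ratios were 0.35 and 0.28. Ifi207 was below the floor on both arrays, at 33.1 on the TKO-labelled and 19.6 on the DKO-labelled array. Ifi206, Ifi208 and Ifi214 had no probe set in the annotation used.

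**Figure D3:**
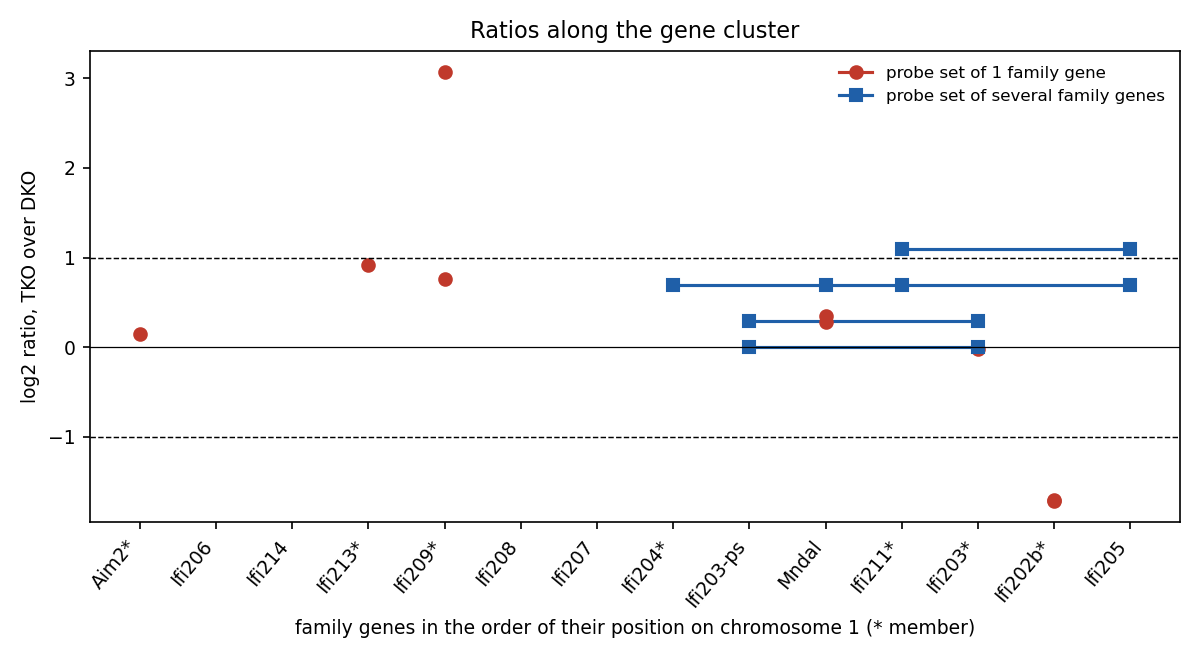
Log2 ratios of the measured family probe sets, TKO over DKO, with the genes in their order on chromosome 1; lines join the genes that share a probe set, and the points of the Ifi202b pair overlap at -1.71. The ratios do not run one way along the cluster: Ifi209 is at 3.07 and 0.76, and Ifi202b stands between Ifi203 and Ifi205. The Ifi203 readings are at -0.02, 0.01 and 0.30. Ifi205 has no ratio of its own, and the probe sets it shares with Ifi211, on the other side of Ifi203, are at 1.10 and 0.70.

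The genes that flank the cluster were mostly not measured. Within 500 kb of its outermost genes the RefSeq table lists 44 other genes, of which 7 had a probe set and 1, Fmn2, was above the floor on both arrays. Fmn2, a formin that nucleates actin, had 74.0 on the TKO-labelled array and 104 on the DKO-labelled array (log2 ratio -0.50). The 6 others, among them the Fc receptor gene Fcer1a and the adhesion gene Cadm3, were below the floor on both.

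The genes with the closest ratios were listed for Ifi209 and Ifi202b, as a likeness over 2 arrays and nothing more. For Ifi209 they were Klhl32 at a log2 ratio of 2.99, the B-cell adaptor gene Bank1 at 2.89 and the tight-junction gene Tjp1 at 3.26. For Ifi202b they were Cfp, the complement factor properdin, at -1.71, Enpp6 at -1.65 and the neutrophil granule gene Ngp at -1.54.

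**Figure D4:**
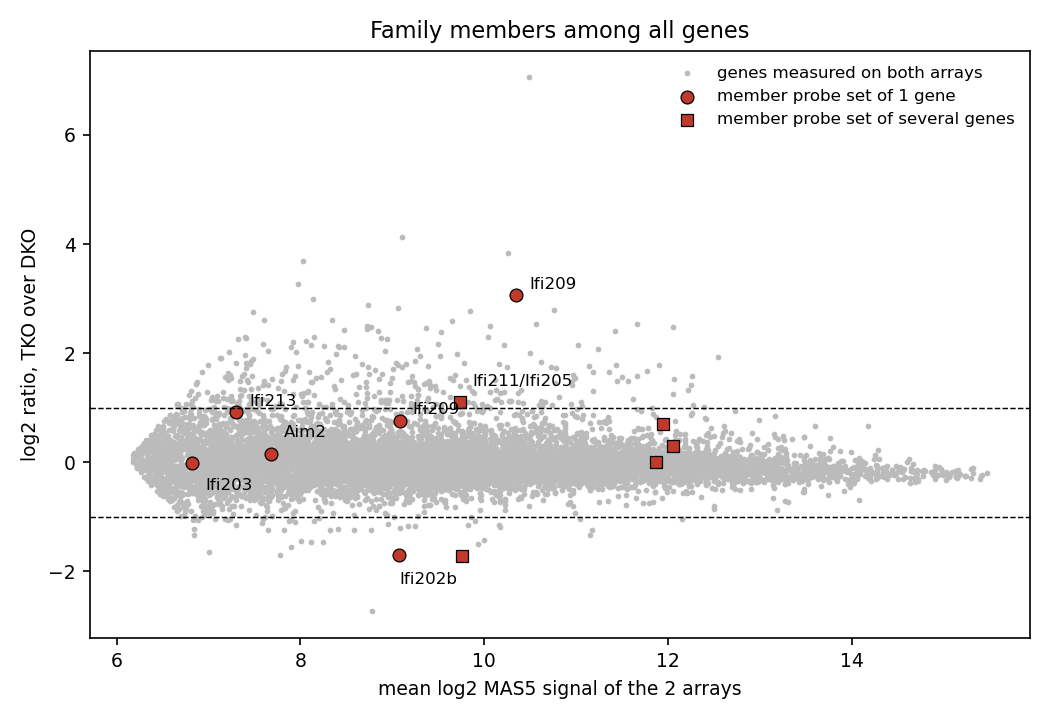
Log2 ratio, TKO over DKO, against mean log2 signal for the genes measured on both arrays (grey) and the measured member probe sets (red circles, 1 gene; red squares, several genes); dashed lines mark 2-fold. An Ifi209 probe set lies near the top at 3.07, its other one at 0.76, and the Ifi202b pair (1 circle, 1 square) near the bottom at -1.71.

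Markers of other cell types differed between the arrays too. The cells were lineage-negative by bead depletion, a step meant to remove cells with such markers. Over all 11280 measured genes 3.58% were higher and 0.532% lower, the shares to set beside the counts of each list below. Of the B lineage markers 9 of 9 with a probe set (Cd79a, Cd79b, Ms4a1, Pax5, Ebf1, Cd22, Blnk, Bank1 and Cd72) passed the 2-fold rule upwards, with a median log2 ratio of 2.01 and summed signals of 27483 on the TKO-labelled array and 7070 on the DKO-labelled array. Macrophage and monocyte markers were higher for 3 of 8 measured genes (Csf1r, Lyz2 and Ccr2), with sums of 4067 on the TKO-labelled array and 1815 on the DKO-labelled array, while Cd14 and Itgam were below the floor on both. The median of the 8 was 0.73, and 7 had ratios above 0. Cd163, measured on the DKO-labelled array only, went the other way, at a log2 ratio of -0.36 or below. Of 6 measured dendritic cell markers 4 were higher, which are the class II antigen presentation genes (also expressed by B cells) H2-Aa, H2-Ab1 and Cd74 and the receptor gene Ccr7, with list sums of 23384 on the TKO-labelled array and 6270 on the DKO-labelled array, and Flt3, Siglech and Xcr1 were below the floor on both.

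The remaining marker lists moved less or the other way. Of 9 measured neutrophil markers 2 were lower (Ngp and S100a9) and 0 higher, with sums of 1896 on the TKO-labelled array and 3319 on the DKO-labelled array. Their median was -0.55, and 2 of the 9 had ratios above 0, Ltf at 0.74 and Prtn3 at 0.27. Of 13 measured T lineage markers 1 was lower (Il2ra, log2 ratio -1.05), with sums of 77076 on the TKO-labelled array and 111440 on the DKO-labelled array. The median of the 13 was -0.32, and 2 had ratios above 0, Cd8a at 0.04 and Cd8b1 at 0.15. Natural killer and innate lymphoid markers had 9 of 9 ratios above 0 and 0 past 2-fold, a median of 0.57, and sums of 10566 on the TKO-labelled array and 7055 on the DKO-labelled array. Most of both sums came from Il7r alone, at 7665 on the TKO-labelled array and 5159 on the DKO-labelled array. The largest log2 ratios of that list were those of Klrk1 (0.98), Eomes (0.90), Prf1 (0.63) and Tbx21 (0.58). Of the thymic stroma markers 4 of 8 were measured and 1, Pdgfrb, was lower at -1.34. The median of the 4 was 0.03, and 2 had ratios above 0, Krt5 at 0.31 and Krt8 at 0.42. Of the erythroid markers 1 of 5 was measured, Epor, whose TKO signal was under the floor, leaving its log2 ratio at -0.16 or below. Ifi200 genes are expressed in several of these cell types, and the part of cell composition, or of sex, in the Ifi209, Ifi211 and Ifi202b values was not tested. In such bulk RNA a different number of cells of a type and a different amount of RNA per cell cannot be told apart.

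Interferon-stimulated genes outside the family were mostly above 0. Of the 36 genes listed 34 were measured, and of these 5 passed the 2-fold rule upwards on the TKO-labelled array and 0 downwards. Over all measured genes 3.58% were higher and 0.532% lower. A ratio above 0 was found for 29 of the 34, and the median log2 ratio was 0.28, against -0.03 over all measured genes. The share of all genes with a ratio above 0 was not counted. Ifi27l2a, which encodes a small mitochondrial and nuclear envelope protein, gave 10047 on the TKO-labelled array and 1793 on the DKO-labelled array (log2 ratio 2.49). The nucleotide kinase gene Cmpk2 was at 1.35, the membrane protein gene Ifitm1 at 1.29 and the chemokine gene Cxcl10 at 1.18. The antiviral GTPase gene Mx2, measured on the TKO-labelled array only, was at a log2 ratio of at least 1.17.

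Of the 34 measured genes 29 were under 2-fold, classic interferon targets among them. Ifit1, an RNA-binding antiviral protein, gave 553 on the TKO-labelled array and 569 on the DKO-labelled array (log2 ratio -0.04). Oasl2 was at 0.17, Rsad2 at 0.47 and Bst2 at -0.18. These 4 were picked after their values were seen. The largest ratios under 2-fold were those of Mx1 (0.79), Ifit3 (0.78) and Ifitm3 (0.73), and Ifitm2 had the lowest ratio of the list at -0.44.

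Among the interferon receptors and their signalling genes 0 of 15 measured genes passed 2-fold in either direction, and the median log2 ratio was 0.13. The largest were the transcription factor gene Irf8 (2139 on the TKO-labelled and 1223 on the DKO-labelled array, 0.81), the receptor chain Ifngr2 (0.64), the inhibitor Socs3 (0.61) and the transcription factor gene Stat2 (-0.50).

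In a list of inflammasome genes, partners of Aim2 among them, Casp4 alone passed 2-fold. Of the 10 genes listed 7 were measured, 1 of them higher and 0 lower, and their median was -0.03. Over all measured genes the shares were 3.58% higher and 0.532% lower. Pycard, the adaptor that binds Aim2 through its pyrin domain, gave 4890 on the TKO-labelled array and 5503 on the DKO-labelled array (log2 ratio -0.17), and Casp1, the protease, gave 397 and 545 in the same order (-0.46). Casp4, the protease that binds bacterial lipopolysaccharide, gave 153 on the TKO-labelled array and 8.39 on the DKO-labelled array, below the floor there, a log2 ratio of at least 1.15.

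Genes of cytosolic and endosomal nucleic acid sensing are a list of sensors, adaptors, kinases, transcription factors and nucleases. Of 19 measured genes 2 were higher and 0 lower, beside 3.58% and 0.532% of all measured genes. The median of the 19 was -0.05. Samhd1, a deoxynucleotide hydrolase, was at 1.44 (1071 on the TKO-labelled and 396 on the DKO-labelled array). Unc93b1, the chaperone of endosomal Toll-like receptors, was at 1.12 (815 on the TKO-labelled and 376 on the DKO-labelled array). Cgas, the cytosolic DNA sensor, was at -0.03 and its adaptor Sting1 at 0.48.

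Known partners of p202 and p204 gave 0 of 16 measured genes past 2-fold in either direction, with a median log2 ratio of -0.08. The largest were Id2, a helix-loop-helix inhibitor (4608 on the TKO-labelled and 2405 on the DKO-labelled array, 0.94), Jun (-0.62), the retinoblastoma relative Rbl2 (0.54) and Rbl1 (-0.33). Rb1 itself was at -0.05.

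**Figure D5:**
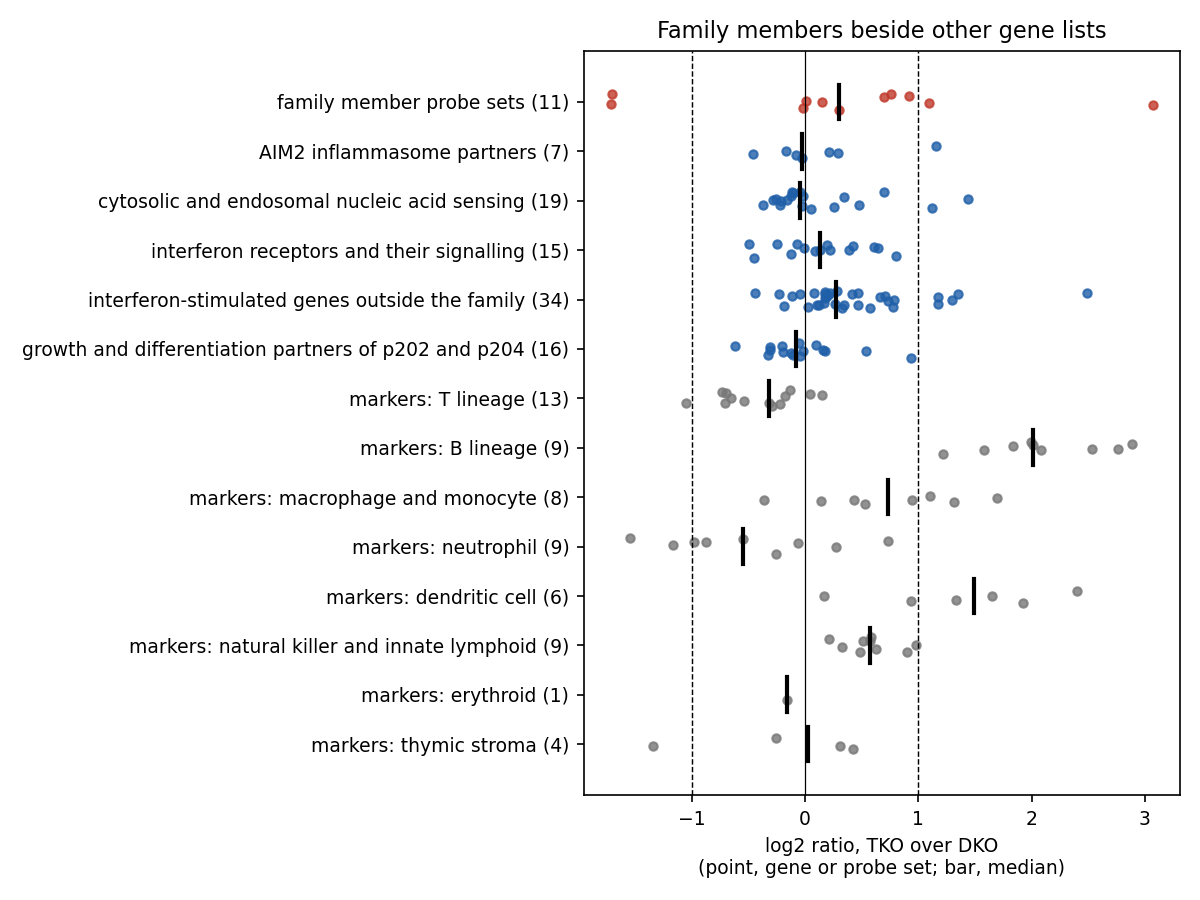
Log2 ratios, TKO over DKO, of the 11 measured member probe sets (red), of 5 related gene lists (blue) and of 8 lists of cell type markers (grey), with the number measured in brackets; bars are medians and dashed lines mark 2-fold. The member probe sets run from -1.71 to 3.07, with the other Ifi209 probe set at 0.76, and were chosen with these values known. Some are of the same gene, while the lists hold 1 probe set per gene, so the spreads are not compared. The B lineage markers have the highest median at 2.01.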

How the data were processed

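RNA of lineage-negative thymocytes was hybridised to 2 one-colour arrays, 1 per label. The deposited values are intensities on a linear scale for 45037 probe sets, made with MAS5 per the submitters' processing notes, with no version or settings given. Both arrays have a mean of 497 after trimming 2% from each end. Of the probe sets, 34945 carry 1 gene in the platform annotation, 932 several, and 9160 are not listed; RefSeq symbols (GRCm38.p6) were found through Entrez IDs for 99.4% of the 1-gene probe sets. Signals under each array's median were raised to it. A gene was represented by its own probe set of highest mean log2 signal, and probe sets shared by family genes were read by themselves. The log2 ratio is TKO over DKO, and 2-fold was the size rule, since 1 array per label allows no test. The number of arrays limits the precision.

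The members, gene lists, motifs and alternative settings (scaling, floor, probe set types, choice of probe set and size rule) were chosen with earlier results of these data known. Named genes of a list are those past 2-fold or, where none were, up to 4 with the largest absolute ratio, plus some picked afterwards. The latter are Ifit1, Oasl2, Rsad2, Bst2, Mx1, Ifit3, Ifitm3, Ifitm2, Pycard, Casp1, Cgas, Sting1 and Rb1, and examples of neighbours. Among markers, some below the floor on both arrays (Cd4, Cd14, Itgam, Flt3, Siglech and Xcr1) and the 1 measured erythroid gene, Epor, are also named. So are Il7r, for its share of the sums of its list, and Ltf, Prtn3, Krt5, Krt8, Cd8a and Cd8b1, whose ratios were above 0. Cd163 is named as the macrophage and monocyte marker with a ratio below 0. The ratio and count step was tested on simulated data, with changes past 2-fold planted only in probe sets far above the floor. That setting does not cover dim members or ratios near 2-fold. Python 3.11.15, numpy 2.4.6, pandas 2.3.3, scipy 1.17.1, statsmodels 0.14.6 matplotlib 3.10.9 and, for aligning promoters, Biopython 1.88 were used. Protein sequences were not used here.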

Additional observations from a re-analysis of the deposited data

How the results depend on the processing

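No paired analysis was possible because each label has 1 array, and for the same reason no replicate could be left out. Where an alternative gave a ratio, Ifi209 stayed at least 2-fold higher in TKO (log2 ratios 1.91 to 3.10 over 8 alternatives) and Ifi202b at least 2-fold lower (-1.76 to -1.17 over 7), while Ifi213 stayed under 2-fold (0.86 to 0.95) and Aim2 and Ifi203 lay within 0.19 of 0, Ifi203 changing sign under median centring (0.02). The main counts were 2 member probe sets higher and 2 lower, and 1 member gene higher and 1 lower. Of all 11280 measured genes 404 were higher (3.58%) and 60 were lower (0.532%). The number of measured genes changes with the floor and with the probe sets kept. With no floor all 18194 genes have a ratio. For the other such alternatives the number was not counted, so their counts over all genes are not shares. No count over all probe sets was made for the alternatives. With the 25th-percentile floor 2 member genes were higher, since Ifi204 then has a ratio, and 962 of all genes were higher and 434 lower. With no floor 2 of the 6 member genes with a probe set of their own were higher. Of all 18194 genes 2197 were higher and 1497 lower there. With the 75th-percentile floor Ifi213, Aim2 and Ifi203 fell below it and had no ratio, Ifi202b was at -1.17 as a bound, and 147 of all genes were higher and 14 lower. Without probe sets of the _x_at, _s_at and _a_at types 1 member probe set was higher and 0 were lower. There 0 member genes were lower, since no Ifi202b probe set is left, and 339 of all genes were higher and 45 lower. At a 1.5-fold rule 5 of the 11 measured member probe sets and 2 of the 5 measured member genes were higher. Of the 11280 measured genes 977 were higher and 369 lower at that rule. The member probe sets have no share over all probe sets beside them there, so nothing is read from their count. Median centring, quantile normalization and lowess moved no member count, and the median log2 ratio of all genes lay between -0.05 and 0.00 under them. Counting Mndal and Ifi207 with the members, an alternative chosen after seeing the data, changed no count. Dim genes near the floor (Ifi204, Ifi203 alone, Ifi213) are limited by signal over background.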

Other observations

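Several promoter windows of the family were near-identical where they aligned without gaps, each window having 300 bases. The windows of Ifi213 and Ifi208 were identical at 282 of 285 aligned bases and those of Ifi206 and Ifi208 at 279 of 281. Ifi203 and Mndal have 2 windows each. Between them 1 pair of windows reached a minimum of 150 aligned bases, with 282 of 289 identical. Those of Ifi211 and Ifi205 were identical at 189 of 201 aligned bases, the shortest alignment of these pairs, and those of Ifi209 and Ifi214 at 287 of 299. The Ifi214 window carries the full response element core, without the G1T change of Ifi209, and Ifi214 had no probe set in the annotation used. Of the 10 family genes with an aligned core, 7, Ifi213 included, have the same 10 letters there. The Ifi207 window was less alike, with at most 88.7% identity of aligned bases (to Ifi205), and so was that of Ifi202b, at most 153 of 216 to Ifi214. No alignment of the Aim2 window reached the minimum of 150 aligned bases.

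Of Ifi203 and Mndal, alike in 1 window each, the dim probe set of Ifi203 alone was at a log2 ratio of -0.02. The measured probe sets that Ifi203 shares with Ifi203-ps were brighter, at 0.01 and 0.30. Mndal was at 0.28 and 0.35, and the probe set of Ifi211 and Ifi205 was at 1.10. A link between promoter type and ratio was not tested. Among genes with no ratio, Ifi204 read 71.1 on the TKO-labelled array and 35.4 on the DKO-labelled array, and Ifi207 read 33.1 and 19.6 in the same order.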
